A study of Homo sapiens with 4 samples.

Results

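The phosphoinositide 3-kinase (PI3 kinase) catalytic and regulatory subunits were examined in cells labelled HepG2, a human hepatocellular carcinoma (HCC) line, with and without CRISPR-Cas9 targeting of TXNDC9, a thioredoxin domain containing protein. The members were 10 of the 57979 genes with values, taken by symbol: the class IA catalytic subunits PIK3CA, PIK3CB and PIK3CD, the class IA regulatory subunits PIK3R1, PIK3R2 and PIK3R3, the class II enzymes PIK3C2A and PIK3C2B, and the class III pair PIK3C3 and PIK3R4. Polyadenylated RNA was sequenced in 2 wild-type libraries and 2 TXNDC9 knockout libraries, all from cells grown in DMEM with 10% fetal bovine serum. The knockout cells carried Cas9 and sgRNAs against the first exon of TXNDC9 from a lentiviral vector. For protein blots the study sorted the infected cells, with the vector alone as control, and reported TXNDC9 protein as significantly reduced. The sources used here do not say whether the sequenced libraries came from such cells, from a clone or from a pool. Nothing in the labels says that the 2 libraries of a group came from separate cultures, so the p-values measure only the spread between these libraries, which may be technical.

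PI3 kinases add a phosphate to the inositol ring of membrane phosphoinositides. Class IA enzymes pair a catalytic subunit with a regulatory subunit, are recruited by receptors such as the insulin receptor, and make the lipid that brings AKT to the plasma membrane, a route that is often active in HCC and that controls metabolism in liver cells. Class II enzymes work alone on endosomes and at sites of endocytosis. The class III kinase works in complexes with its partner PIK3R4 to make phosphatidylinositol 3-phosphate (PI3P) for endosome sorting and autophagy.

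The values were FPKM, fragments scaled to transcript length and to the mapped fragments of the library, and the depth of the libraries is unknown. Summed FPKM was 805816 and 971102 per wild-type library against 535973 and 568279 per knockout library. The targeted TXNDC9 mRNA measured 35.1 and 37.3 FPKM in wild type against 21.9 and 27.6 FPKM after knockout, and did not pass the threshold for a call (log2 fold change −0.55, standard error 0.14, adjusted p = 0.0145). The knockout values were below both wild-type values, but rescaling each library to the same sum turned the log2 fold change to 0.12. EIF5B, which overlaps TXNDC9 on the opposite strand, was at 56.6 and 83.6 FPKM in wild type against 32.8 and 35.4 FPKM after knockout. How the reads were split between TXNDC9 and EIF5B was not tested. The data went against the cell label: of 9 hepatocyte and hepatoma markers, ALB, AFP, APOA1, APOB, TTR, SERPINA1, HNF4A, FGB and TF, none had a mean above 1 FPKM, their summed level was 0.446 to 0.733 FPKM in wild-type and 0.0479 to 0.174 FPKM in knockout libraries, and APOA1 was listed at 0 in all 4. Of 7 leukocyte markers 2 had a mean above 1 FPKM, with sums of 3.995 to 6.92 FPKM in wild-type and 9.35 to 10.4 FPKM in knockout libraries and CD3E listed at 0. A listed 0 need not mean absent RNA here, since all 37 mitochondrial genes were also listed at 0 in every library. Of 5 endothelial or fibroblast markers 3 had a mean above 1 FPKM, with sums of 48.9 to 52.5 FPKM in wild-type and 34.3 to 38.8 FPKM in knockout libraries, most of it COL1A1 and COL3A1. CDH5 of the same list went the other way and was called higher, from 0.751 and 1.07 FPKM to 4.26 and 3.14 FPKM (log2 fold change 1.92, adjusted p = 0.00195). Its wild-type mean was below 1 FPKM, so CDH5 passed the filter of an average FPKM above 1 only through its knockout level. PECAM1 and LUM of that list had averages below 1 FPKM and were not tested. The PECAM1 mean was 0.0949 FPKM in wild type and 0.194 FPKM after knockout, with overlapping values. The LUM mean was 0.848 FPKM in wild type and 0.287 FPKM after knockout. The part of these marker differences in the results was not tested. The cells are therefore named here only by their label.

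Promoter sequences are shown for the members at the extremes of the comparison described next, the class II pair with its large rises and PIK3R4, the member that fell. Each is the 250 bases before a RefSeq transcript start on GRCh38.p14, 5′ to 3′ on the strand of the gene, with CG dinucleotides in capitals. They lie at chr11:17207987-17208236, minus strand, for PIK3C2A, at chr1:204494806-204495055, minus strand, for PIK3C2B, and at chr3:130746830-130747079, minus strand, for PIK3R4.
PIK3C2A: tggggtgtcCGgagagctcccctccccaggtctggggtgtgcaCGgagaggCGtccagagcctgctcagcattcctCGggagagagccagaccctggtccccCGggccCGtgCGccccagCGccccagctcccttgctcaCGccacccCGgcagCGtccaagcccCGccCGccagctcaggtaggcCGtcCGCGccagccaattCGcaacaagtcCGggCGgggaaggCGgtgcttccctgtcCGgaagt
PIK3C2B: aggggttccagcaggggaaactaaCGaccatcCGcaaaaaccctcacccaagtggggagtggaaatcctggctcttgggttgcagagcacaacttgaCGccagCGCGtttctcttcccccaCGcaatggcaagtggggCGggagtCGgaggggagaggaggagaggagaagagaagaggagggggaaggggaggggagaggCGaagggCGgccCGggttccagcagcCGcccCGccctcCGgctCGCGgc
PIK3R4: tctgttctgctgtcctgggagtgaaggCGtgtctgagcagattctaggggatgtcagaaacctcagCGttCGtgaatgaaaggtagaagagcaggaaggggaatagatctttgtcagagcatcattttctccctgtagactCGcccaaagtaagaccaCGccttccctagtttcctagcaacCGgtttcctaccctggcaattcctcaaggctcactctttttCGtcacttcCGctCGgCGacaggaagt

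The PIK3C2A window held 21 CG dinucleotides at a GC content of 71.6%, the PIK3C2B window 16 at 65.2% and the PIK3R4 window 10 at 50.8%. RefSeq gave 21 such windows for the 10 members. Because the study concerns MYC, the letters CACGTG of the MYC E-box, which read the same on both strands, were searched for and were in 0 of these 21 windows, against 6.34% of all 35116 promoter windows of that length. The letters GTAAACA or TGTTTAC, a binding motif of the FOXO factors that AKT keeps out of the nucleus, searched for on both strands, were in 1 of the 21 windows and in 2.98% of all windows. That match lay 149 bases before a PIK3CA start, at chr3:179148208-179148214, plus strand, within the 5′ UTR of a non-canonical PIK3CA transcript. It is shown in capitals within the stretch chr3:179148198-179148224. It describes the letters only, and no match says nothing about the binding of a factor.
PIK3CA: gttcgttgttTGTTTACacgatgtgag

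All 10 members passed the filter of an average FPKM above 1. PIK3R1 passed it only through its knockout level, since its wild-type mean was below 1 FPKM, and its call is given with that limit. A gene was called when limma on log2(FPKM + 0.1) gave a Benjamini-Hochberg adjusted p under 0.01 over the 13246 tested genes and the change was at least 2-fold. On this scale the change of low genes is understated. By that rule 6 of the 10 members were higher in the knockout libraries (PIK3CA, PIK3CB, PIK3R1, PIK3R3, PIK3C2A and PIK3C2B), 1 was lower (PIK3R4) and 3 were not called (PIK3CD, PIK3R2 and PIK3C3). In bulk RNA, a change in which cells were sampled and a change in mRNA per cell cannot be told apart. Over all tested genes 14.2% were called higher and 15.3% lower. Both knockout values lay above both wild-type values for 7 members, against 40.1% of tested genes, and below both for 1 member, against 45.9%. The median log2 fold change was 1.13 over the members and −0.088 over all tested genes. The 6 members that rose kept a positive log2 fold change, and PIK3R4 a negative one, under every alternative in which they were tested.

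**Figure D1:**
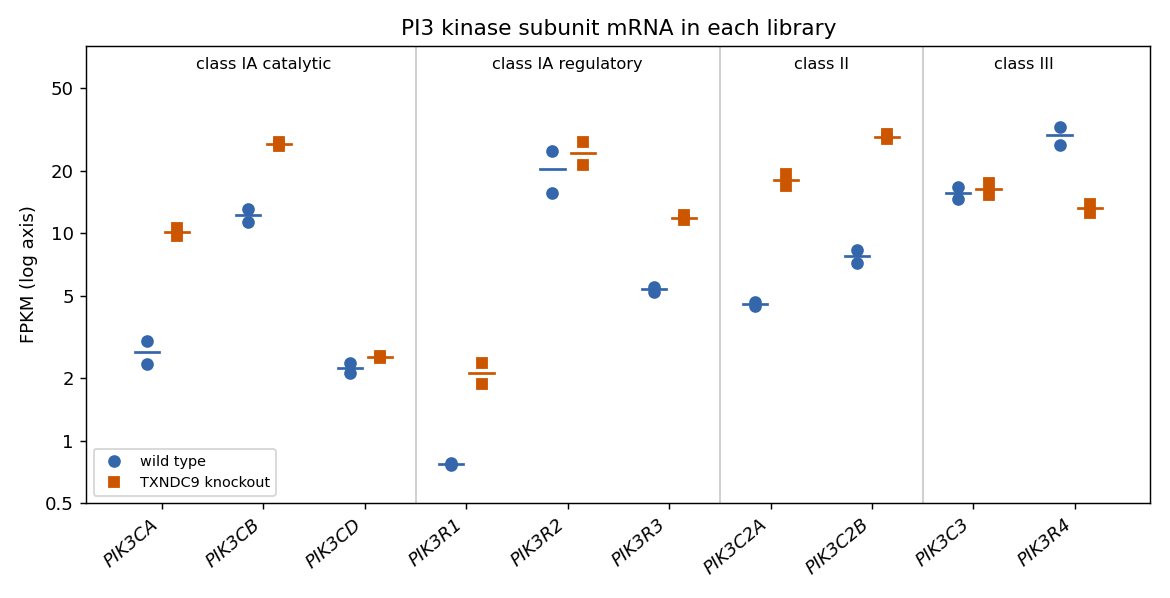
FPKM (log axis) of the 10 PI3 kinase subunits in the 2 wild-type libraries (blue circles) and the 2 TXNDC9 knockout libraries (orange squares), with a line at each group mean. The knockout values stand above the wild-type values for 7 members and below them for PIK3R4, and the groups overlap for PIK3R2 and PIK3C3.

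Scaling and composition of the libraries moved several of these calls. The change in the knockout libraries ran with transcript length and GC content over the whole table: genes called higher had a median canonical transcript length of 5546 nt and a median GC content of 42.2%, genes called lower 1433 nt and 57.9%, and all tested genes 2866.5 nt and 48.5%. The members had a median length of 6617 nt, from 3980 nt in PIK3R2 to 9415 nt in PIK3C3, and a median GC content of 42.3%. After a correction of each library for length and GC content, 1 member was called higher (PIK3C2B), against 6.3% of the 13112 genes with a length, and 2 were called lower (PIK3C3 and PIK3R4), against 7.5%. The median over the members was then 0.45, and −0.065 over all those genes. Corrected values are therefore given beside each member. Without either knockout library no gene of the 13246 was called by limma in either direction, although 7129 and 7307 had an unadjusted p under 0.05. The 7 called members then had adjusted p-values between 0.0232 and 0.0430 and kept their directions. Without either wild-type library all 7 calls held.

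**Figure D2:**
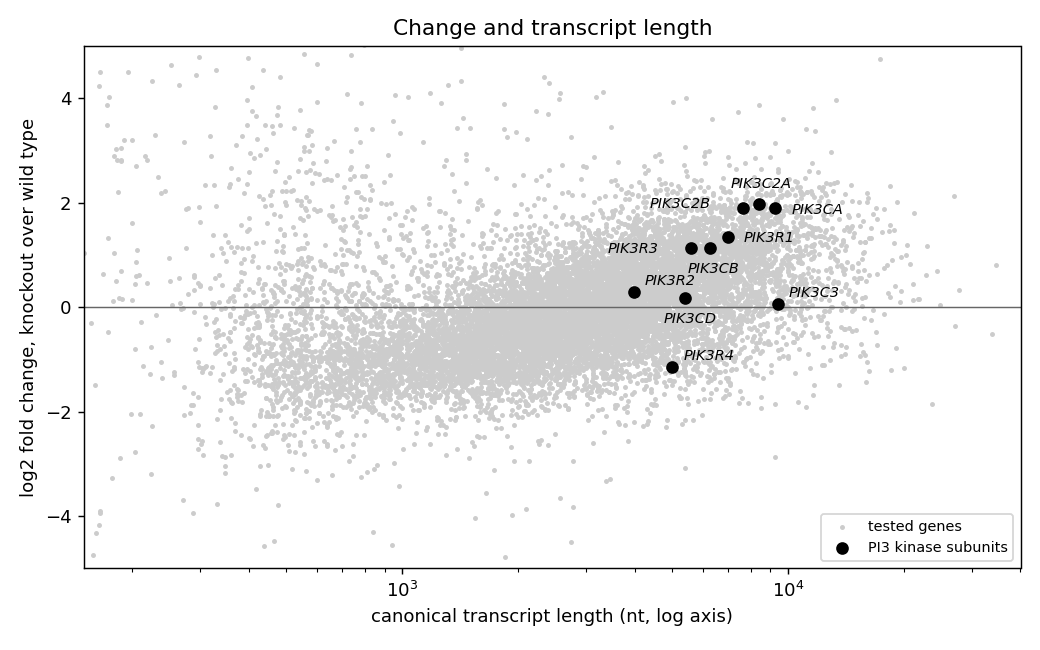
Log2 fold change, knockout over wild type, against canonical transcript length (nt, log axis) for 13078 tested genes (grey, 34 more lie outside the axes) and the 10 subunits (black). Genes with longer transcripts tend to lie higher, and the members lie at 3980 nt and above.

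Of the catalytic subunits of class IA, PIK3CA and PIK3CB rose and PIK3CD was not called. PIK3CA, which encodes p110α and is often mutated in carcinomas, was at 3.03 and 2.34 FPKM in wild type against 9.73 and 10.6 FPKM after knockout. Its mean went from 2.68 ± 0.482 to 10.2 ± 0.614 FPKM (SD, n = 2 each), 3.79-fold, with a log2 fold change of 1.89 (standard error 0.16, adjusted p = 5.76e-04). Both knockout libraries stood well above both wild-type libraries. After the correction the log2 fold change was 0.65, short of 2-fold (adjusted p = 0.0147). PIK3CB, which encodes the other widely expressed catalytic subunit, p110β, was at 13.1 and 11.4 FPKM in wild type against 27.4 and 26.4 FPKM after knockout. The mean rose 2.20-fold, from 12.2 ± 1.22 to 26.9 ± 0.683 FPKM (SD, n = 2 each; log2 fold change 1.13, standard error 0.11, adjusted p = 7.31e-04). This call was close to the 2-fold limit, and centring the libraries on their medians brought the log2 fold change to 0.99 and the length and GC correction to 0.27, neither of them a call. PIK3CD, which encodes the p110δ best known from leukocytes, was at 2.13 and 2.35 FPKM in wild type against 2.51 and 2.55 FPKM after knockout. Its log2 fold change of 0.17 had a 95% interval from −0.27 to 0.61 and did not pass the test (adjusted p = 0.428). On the deposited values a rise as large as that of PIK3CB lies outside this interval. After the correction PIK3CD was at 0.15, beside 0.27 for PIK3CB.

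Levels per transcript length can be compared between the subunits within a library. PIK3CB gave most of the class IA catalytic mRNA, 71.8% and 70.8% of the summed FPKM of the 3 genes in wild-type and 69.1% and 66.8% in knockout libraries. PIK3CA gave 16.6% and 14.6% in wild-type libraries and 24.5% and 26.8% in knockout libraries, a difference of 10.1 percentage points between the means. PIK3CD went the other way, from 11.6% and 14.6% to 6.34% and 6.43%. The groups did not overlap for any of the 3 shares. With 2 libraries against 2 an exact two-sided permutation test cannot give a p below 0.333, and it gave 0.333 for each. The directions of these 3 differences were the same after the length and GC correction, with 5.17 percentage points for PIK3CA, −3.94 for PIK3CB and −1.23 for PIK3CD.

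Among the regulatory subunits, which hold and stabilise the catalytic ones and bind phosphorylated receptors and adaptors, PIK3R3 and PIK3R1 rose and PIK3R2 was not called. PIK3R3, which encodes p55γ, was at 5.51 and 5.21 FPKM in wild type against 12.3 and 11.5 FPKM after knockout. Its mean rose 2.22-fold, from 5.36 ± 0.212 to 11.9 ± 0.522 FPKM (SD, n = 2 each; log2 fold change 1.14, standard error 0.11, adjusted p = 6.94e-04). The groups were far apart, yet centring gave 0.99 and the correction 0.50, both short of a call. PIK3R1, the gene of p85α and its shorter forms, was the lowest member in both groups, at 0.761 and 0.780 FPKM in wild type against 1.86 and 2.37 FPKM after knockout. The mean rose 2.75-fold, a log2 fold change of 1.34 (standard error 0.28, adjusted p = 0.00697). This was the least stable of the higher calls: it was lost with a pseudocount of 1, with no filter on low values (adjusted p = 0.0218) and with the length and GC correction, which gave 0.40.

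PIK3R2, the gene of p85β, was the highest regulatory subunit in every library. It was at 25.0 and 15.7 FPKM in wild type against 27.4 and 21.3 FPKM after knockout, so that the groups overlapped and the wild-type libraries alone differed by more than the group means. The means were 20.4 ± 6.58 and 24.4 ± 4.31 FPKM (SD, n = 2 each), and the log2 fold change of 0.29 had a 95% interval from −0.32 to 0.89 (adjusted p = 0.333). After the correction it was 0.73 (adjusted p = 0.0466), not a call. Without wild-type replicate 2 it was −0.047. A protein-coding gene on the same strand, ENSG00000268173, overlaps PIK3R2 and was at 11.1 and 18.9 FPKM in wild type against 3.48 and 10.3 FPKM after knockout. In both groups the library with the lower PIK3R2 value had the higher value of that gene, and how the reads were split between them was not tested.

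PIK3R2 gave 79.95% and 72.4% of the summed class IA regulatory FPKM in wild-type and 66.0% and 60.6% in knockout libraries. PIK3R3 gave 17.6% and 24.01%, then 29.5% and 32.7%. PIK3R1 gave 2.43% and 3.59%, then 4.49% and 6.74%. The groups did not overlap for any of these shares (exact two-sided permutation p = 0.333, the smallest that 2 against 2 allows), but after the length and GC correction all 3 differences turned, to 3.65 percentage points for PIK3R2, −2.91 for PIK3R3 and −0.74 for PIK3R1. The catalytic genes together made up 36.9% and 42.6% of all class IA FPKM in wild-type and 48.8% and 52.9% in knockout libraries, and this difference also turned, from 11.1 to −5.02 percentage points.

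**Figure D3:**
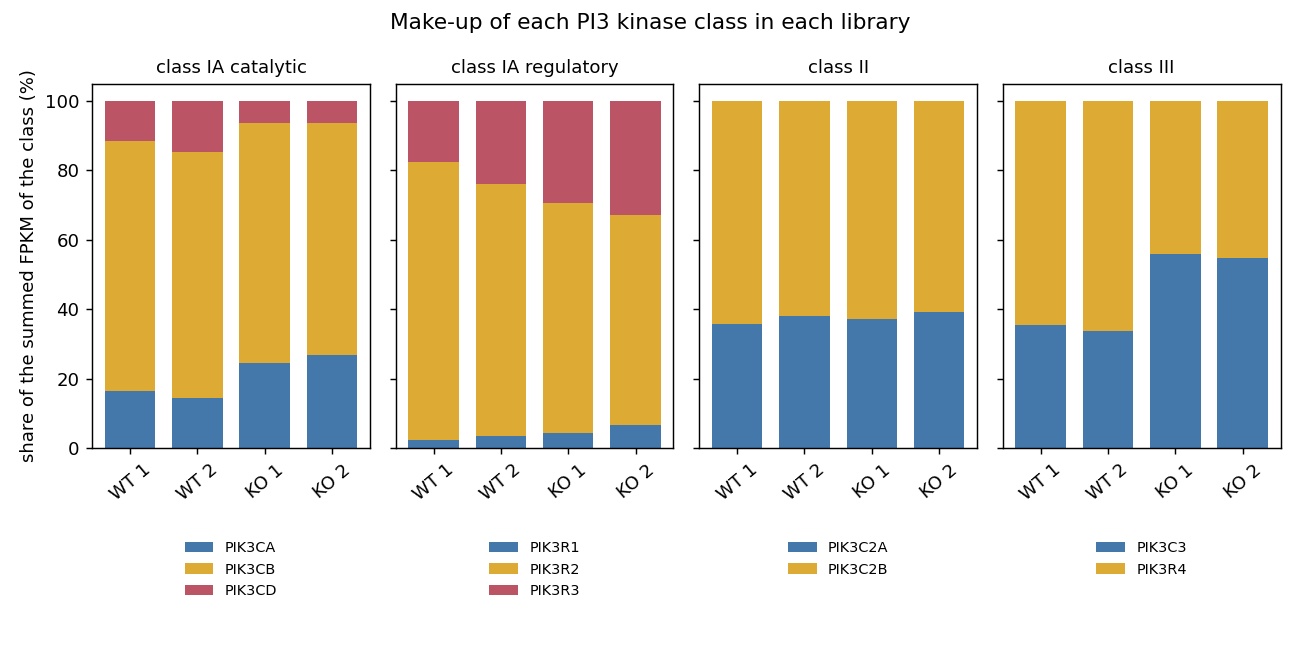
Share of each subunit in the summed FPKM of its class (%), stacked to 100% in each of the 4 libraries (WT, wild type; KO, TXNDC9 knockout). The class III split differs most between the groups, with PIK3C3 at 34.7% on average in wild-type and 55.3% in knockout libraries, while the class II split is nearly the same in all 4.

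Class II gave the largest log2 fold changes of the family, above that of PIK3CA by less than a standard error. PIK3C2A, which encodes the enzyme of clathrin-coated pits and endosomes, was at 4.63 and 4.43 FPKM in wild type against 16.9 and 19.3 FPKM after knockout. Its mean rose 3.99-fold, from 4.53 ± 0.140 to 18.1 ± 1.73 FPKM (SD, n = 2 each; log2 fold change 1.97, standard error 0.12, adjusted p = 4.96e-04). PIK3C2B, its close relative, was at 8.32 and 7.21 FPKM in wild type against 28.5 and 29.9 FPKM after knockout. The mean rose 3.76-fold, from 7.76 ± 0.783 to 29.2 ± 1.03 FPKM (SD, n = 2 each; log2 fold change 1.90, standard error 0.11, adjusted p = 4.96e-04). For both genes the knockout libraries stood far above the wild-type libraries. The members of the pair parted after the length and GC correction. PIK3C2A, with an 8428 nt transcript of 37.6% GC, had a corrected log2 fold change of 0.83 and was no longer called. PIK3C2B, with 7658 nt of 55.6% GC, kept 1.60 (adjusted p = 0.00150) and was the member still called higher.

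The split within class II hardly differed between the groups as deposited. PIK3C2A gave 35.8% and 38.1% of the summed class II FPKM in wild-type and 37.2% and 39.2% in knockout libraries, and the groups overlapped (difference 1.27 percentage points, exact two-sided permutation p = 0.667). After the correction the difference was −12.7 percentage points, with PIK3C2B gaining 12.7. As deposited, the summed class II level was 12.9 and 11.6 FPKM in wild-type libraries, the lowest of the 4 groups of subunits, and 45.4 and 49.3 FPKM in knockout libraries, the highest.

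Class III held the member that fell. PIK3R4, which encodes the VPS15 scaffold that the kinase needs for its activity, was at 26.7 and 32.5 FPKM in wild type against 13.8 and 12.5 FPKM after knockout. The mean went from 29.6 ± 4.16 to 13.2 ± 0.896 FPKM (SD, n = 2 each), a ratio of 0.445, with a log2 fold change of −1.16 (standard error 0.13, adjusted p = 0.00102). The correction made the fall larger, −1.78 (adjusted p = 0.00208), while rescaling to the same sum made it −0.48, which was not a call (adjusted p = 0.0157). PIK3C3, the class III kinase VPS34, was at 14.7 and 16.7 FPKM in wild type against 17.5 and 15.2 FPKM after knockout. The groups overlapped, and the log2 fold change of 0.060 had a 95% interval from −0.25 to 0.37 (adjusted p = 0.688). Its sign depended on the processing: centring gave −0.083, leaving out wild-type replicate 1 gave −0.030 and knockout replicate 1 −0.041, and the length and GC correction gave −1.10, a call in the lower direction (adjusted p = 0.00339).

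The ratio of PIK3C3 to PIK3R4 was 0.551 and 0.512 in the wild-type libraries and 1.27 and 1.21 in the knockout libraries. PIK3C3 thus gave 35.5% and 33.9% of the summed class III FPKM in wild-type and 55.9% and 54.8% in knockout libraries. The difference of 20.6 percentage points was the largest among the deposited shares (exact two-sided permutation p = 0.333, the smallest that 2 against 2 allows), and 11.9 percentage points remained after the correction, when the class II difference of 12.7 was larger. This shift in the class III pair does not depend on how a whole library was scaled, since both genes are read in the same library.

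**Figure D4:**
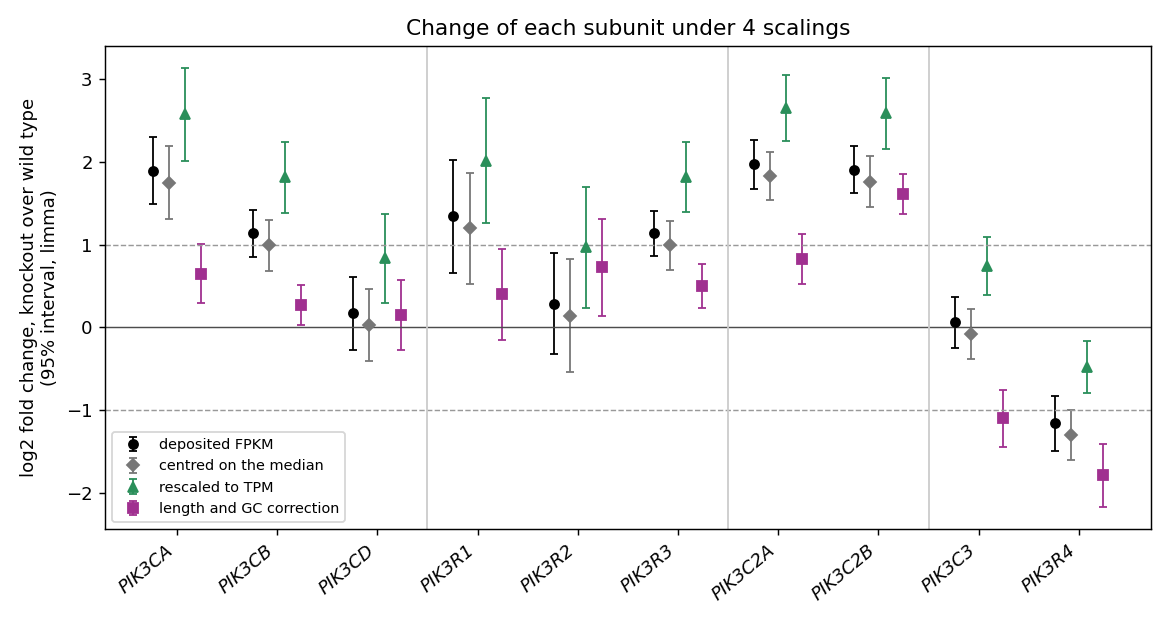
Log2 fold change of each subunit, knockout over wild type, with its 95% interval from limma, for the deposited FPKM (black), after centring on the median (grey), rescaling to TPM (green) and the length and GC correction (purple), with dashed lines at 2-fold. TPM lies above the deposited values for all 10 members, PIK3C2B stays above 2-fold under all 4, and PIK3C3 passes 2-fold, downward, only under the length and GC correction.

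The order of the members by mean deposited FPKM, without the length and GC correction, differed between the groups. In wild-type libraries it ran from PIK3R4 through PIK3R2, PIK3C3, PIK3CB, PIK3C2B, PIK3R3, PIK3C2A, PIK3CA and PIK3CD to PIK3R1, and the ranges overlapped between PIK3R2 and PIK3C3 and between PIK3CA and PIK3CD. In knockout libraries it ran from PIK3C2B through PIK3CB, PIK3R2, PIK3C2A, PIK3C3, PIK3R4, PIK3R3, PIK3CA and PIK3CD to PIK3R1, with overlapping ranges between PIK3CB and PIK3R2 and between PIK3C2A and PIK3C3. PIK3R4 went from rank 1 to rank 6 and PIK3C2B from rank 5 to rank 1. The sums that follow are also of deposited, uncorrected FPKM. Class III was the highest group of subunits in wild-type libraries, at 41.3 and 49.2 FPKM, and the lowest in knockout libraries, at 31.3 and 27.7 FPKM. The class IA catalytic sum was 18.3 and 16.1 FPKM in wild type against 39.6 and 39.6 FPKM after knockout, and the regulatory sum 31.3 and 21.7, then 41.6 and 35.3 FPKM.

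The members lie on 6 chromosomes of hg38, with coordinates from GENCODE release 44. PIK3CA (ENSG00000121879) is at chr3:179148114-179240093, PIK3CB (ENSG00000051382) at chr3:138652698-138834928 and PIK3R4 (ENSG00000196455) at chr3:130678934-130746829. PIK3CD (ENSG00000171608) is at chr1:9629889-9729114, PIK3R3 (ENSG00000117461) at chr1:46040140-46133036 and PIK3C2B (ENSG00000133056) at chr1:204422628-204494805. PIK3R1 (ENSG00000145675) is at chr5:68215740-68301821, PIK3C2A (ENSG00000011405) at chr11:17077730-17207986, PIK3C3 (ENSG00000078142) at chr18:41955234-42087830 and PIK3R2 (ENSG00000105647) at chr19:18153163-18170532. PIK3R1 and PIK3R4 overlap no other annotated gene. PIK3R2, PIK3C3, PIK3R3 and PIK3C2A overlap at least 1 other gene on their own strand. Those overlapping PIK3R3 and PIK3C2A were listed at 0 in all 4 libraries. Apart from PIK3R2 and PIK3C3, each of the other 6 overlaps at least 1 gene on the opposite strand. The reads of such opposite genes cannot be told apart, since the use of strand is not given. Of these opposite genes the one with the highest level, CLSTN1, overlaps PIK3CD and was at 38.7 and 45.3 FPKM in wild type against 27.7 and 29.2 FPKM after knockout. KCNMB3, which overlaps PIK3CA, was at 1.34 to 3.03 FPKM. PIK3CA also has a known partial copy elsewhere in the genome, so that its value is uncertain by the reads shared with it.

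The remaining PI3 kinase genes were listed at low values. PIK3CG, PIK3C2G, PIK3R5, PIK3R6 and the modulators PIK3IP1 and PIK3AP1 were all below an average of 1 FPKM and were not tested. Their means were at most 0.230 FPKM, and PIK3R6 was listed at 0 in all 4 libraries. The p110γ enzyme and its PIK3R5 and PIK3R6 partners are known from leukocytes.

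Other genes of the pathway were taken from 8 lists with 116 genes, of which 100 were tested. Of these 25 were called higher and 8 lower, against 14.2% and 15.3% of all tested genes. The median log2 fold change was 0.46, against −0.088 over all tested genes. After the length and GC correction 9 were called higher and 4 lower, with a median of 0.20. Over all genes with a length that correction gave 6.3% higher and 7.5% lower, with a median of −0.065. The counts of each list below are to be read beside these shares, which some of them are near.

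Phosphoinositide phosphatases, which remove the phosphates that kinases add, had 8 of 23 tested genes higher and 0 lower and a median log2 change of 0.68. The largest changes were in MTMR3 and MTM1, myotubularin phosphatases that remove from PI3P the phosphate that PI3 kinases add. MTMR3 was at 1.15 and 0.539 FPKM in wild type against 4.82 and 4.21 FPKM after knockout (log2 fold change 2.37, standard error 0.35, adjusted p = 0.00222). Its wild-type mean was below 1 FPKM, so it passed the filter only through its knockout level. MTM1 was at 1.43 and 1.07, then 4.62 and 3.95 FPKM (log2 fold change 1.70, adjusted p = 0.00139). Both were still called higher after the correction, at 1.75 and 1.22.

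The list of phosphoinositide 4- and 5-kinases held 12 genes, counting the scaffold VAC14, which is not a kinase. Of these, 2 were higher and 1, VAC14, was lower, with a median of 0.46. PIKFYVE, which phosphorylates PI3P on endosomes, was at 1.26 and 1.01 FPKM in wild type against 6.11 and 6.97 FPKM after knockout (log2 fold change 2.43, standard error 0.19, adjusted p = 5.38e-04) and was still called after the correction, at 1.36. VAC14, the scaffold that PIKFYVE needs, went the other way, from 32.4 and 46.2 FPKM to 17.8 and 17.9 FPKM (log2 fold change −1.11, adjusted p = 0.00281), and was not called after the correction, at −0.79. Partners of the class III complex and PI3P effectors had 3 of 13 higher and 0 lower, with a median of 0.69. EEA1, an endosome tether that binds PI3P, was at 1.45 and 1.38 FPKM, then 5.85 and 5.53 FPKM (log2 fold change 1.93, adjusted p = 5.51e-04). RUBCN, an inhibitor of the class III complex in autophagy, was at 3.55 and 3.04 FPKM, then 8.61 and 6.94 FPKM (log2 fold change 1.21, adjusted p = 0.00162). Neither was called after the correction, at 0.64 and 0.52.

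**Figure D5:**
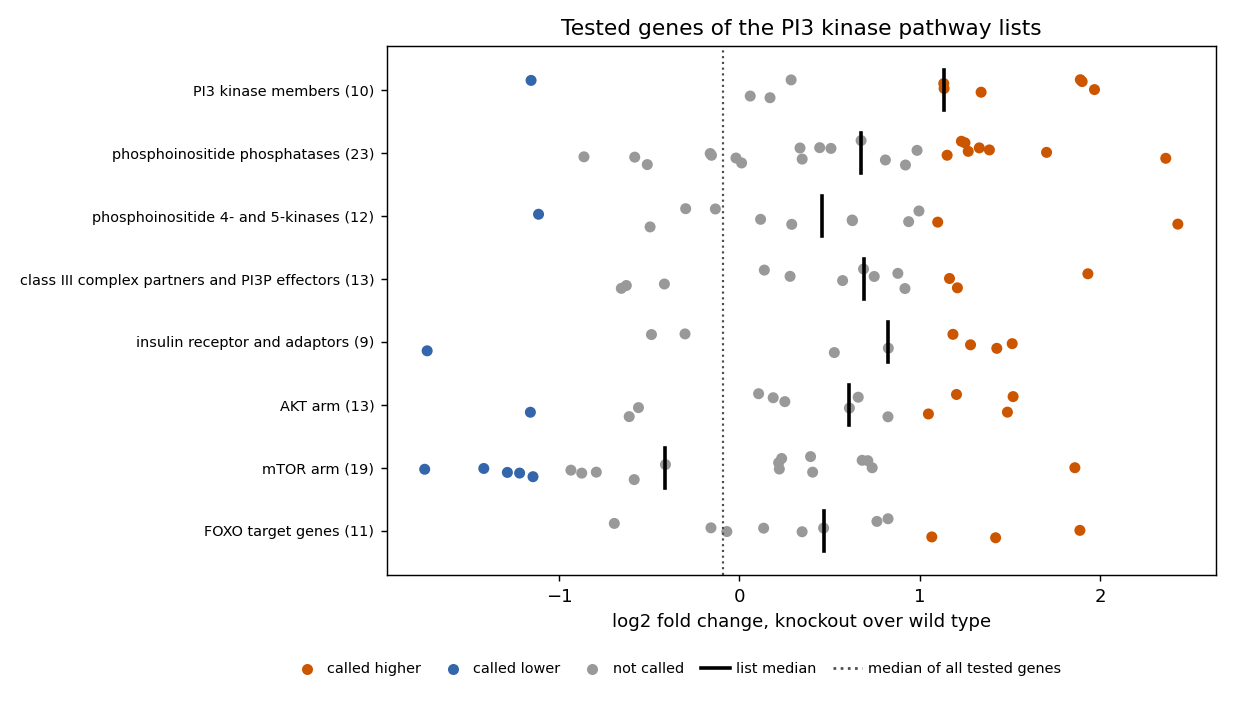
Log2 fold change, knockout over wild type, of each tested gene in the members and 7 pathway lists (number of tested genes in brackets), coloured by call, with a bar at the list median and a dotted line at −0.088, the median of all 13246 tested genes. The members have the highest median, 1.13, and the mTOR arm the lowest, −0.41.

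Upstream of class IA, the insulin receptor and adaptor list had 4 of 9 genes higher and 1 lower, with a median of 0.83. One of the higher genes, GAB1, named after its values were seen, had a wild-type mean below 1 FPKM and passed the filter only through its knockout level. GAB2, a docking protein that binds the regulatory subunits, was at 3.08 and 2.55 FPKM in wild type against 7.93 and 8.43 FPKM after knockout (log2 fold change 1.51, standard error 0.15, adjusted p = 6.97e-04). GRB10, an adaptor that dampens insulin receptor signalling, was at 12.4 and 14.4 FPKM, then 4.39 and 3.55 FPKM (log2 fold change −1.73, standard error 0.15, adjusted p = 6.01e-04). Both calls were kept after the correction, at 1.29 and −2.03.

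Downstream, the AKT arm had 4 of 13 genes higher and 1 lower, with a median of 0.61. PDPK1, the kinase that activates AKT, was at 4.24 and 4.76 FPKM in wild type against 13.5 and 12.6 FPKM after knockout (log2 fold change 1.52, adjusted p = 5.38e-04), and 1.05 after the correction, still a call. PHLPP2, a phosphatase that inactivates AKT, was at 3.94 and 3.95 FPKM, then 10.9 and 11.6 FPKM (log2 fold change 1.49, adjusted p = 5.38e-04), and 0.59 after the correction, not a call.

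The mTOR arm, which controls translation and growth, had 1 of 19 genes higher and 5 lower, and its median log2 change was −0.41. The sign of this median depended on the scaling. Rescaling to TPM gave 6 higher and 1 lower with a median of 0.27, against 0.59 over all tested genes. By that scaling 4380 of the 13246 tested genes were called higher. The length and GC correction gave 0 higher and 2 lower with a median of −0.18, against −0.065. As deposited the median of all tested genes was −0.088, so the list median lay below that of all tested genes each time. RICTOR, a subunit of the complex that phosphorylates AKT, was the gene that rose, from 3.34 and 3.45 FPKM to 13.4 and 11.8 FPKM (log2 fold change 1.86, adjusted p = 5.12e-04), and it was not called after the correction, at 0.64. Of the 5 that fell, EIF4EBP1, a repressor of translation that mTOR switches off, had the largest change, from 217 and 291 FPKM to 71.0 and 79.1 FPKM (log2 fold change −1.75, adjusted p = 6.93e-04), and was not called after the correction, at −0.75. The others were RPS6, TSC2, AKT1S1 and MLST8, named after their values were seen, with log2 fold changes between −1.42 and −1.14. They do not act in 1 direction: TSC2 and AKT1S1 restrain mTOR, MLST8 belongs to its complexes and RPS6 is a ribosomal protein downstream of it.

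FOXO target genes, which are known to be held down when AKT is active, had 3 of 11 tested genes higher and 0 lower, with a median of 0.47. Of the tested genes 8 had a positive and 3 a negative log2 fold change. The other 5 of the 16 listed, IGFBP1, PCK1, G6PC, SESN3 and KLF15, were below an average of 1 FPKM and were not tested. CCNG2, an atypical cyclin linked to cell cycle arrest, was at 2.81 and 1.87 FPKM in wild type against 9.34 and 8.24 FPKM after knockout (log2 fold change 1.89, adjusted p = 9.92e-04). BCL6, a transcriptional repressor, was at 3.33 and 3.08 FPKM, then 8.96 and 8.54 FPKM (log2 fold change 1.42, adjusted p = 5.90e-04). Both were still called higher after the correction, at 1.10 and 1.31, as was the other called gene of the list, TRIB1. The transcripts alone do not show the activity of the kinases, which was not measured in these libraries.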

How the data were processed

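Polyadenylated RNA of cells labelled HepG2 was sequenced on the Illumina HiSeq Xten, in 2 wild-type and 2 TXNDC9 knockout libraries. The authors mapped reads to hg38 with TopHat2, using Ensembl annotation without new junctions, and deposited FPKM per gene and library from Cuffdiff; versions, library normalization and strand are not given in the sources used here. Group averages, log2 fold changes, p- and q-values of the authors were also deposited and were not used. Identifiers stood out of register with symbols, so members were matched by symbol, and PIK3R3 by its higher row (the other was listed at 0 throughout).

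Genes with an average FPKM above 1 (13246) were tested with limma 3.58.1 (R 4.3.3) on log2 of FPKM plus a pseudocount of 0.1, letting the prior variance follow a trend, with Benjamini-Hochberg adjustment over all of them and without a replicate block, and called at an adjusted p under 0.01 and at least 2-fold. Shares within a class were compared by exact two-sided permutation tests. Length and GC content of canonical transcripts came from GENCODE release 44, and the correction fitted loess curves (span 0.3) in each library. The scripts were tested on simulated data. FPKM values hold no counts, so no depth, counting interval or detection floor is given. Named genes are the members, TXNDC9 and the 2 largest changes of each list; 1 further gene that it listed by name is not reported here, and the markers and a few others named as such are exceptions. The members and lists were chosen with earlier results of these data known. Tables and figures were made in Python 3.11.15 with numpy 2.4.6, pandas 2.3.3, matplotlib 3.10.9 and scipy 1.17.1.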

Additional observations from a re-analysis of the deposited data

How the results depend on the processing

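Leaving out each library in turn, with the lone library of a group assumed to vary like the other, gave 0 to 2136 genes called higher and 0 to 2633 lower, 0 to 6 members higher and 0 to 1 lower, and 0 to 27 pathway genes higher and 0 to 9 lower, the zeros all without a knockout library. PIK3R2 then ranged from −0.047 to 0.62 and PIK3C3 from −0.041 to 0.16 in log2 fold change. The length and GC correction gave 826 genes higher and 983 lower, 1 member higher and 2 lower, and 9 pathway genes higher and 4 lower, and with the replicate block 730 and 983, 1 and 2, and 7 and 4. With it PIK3C3 went to −1.10, with and without the block. It turned the differences in share to −0.74 percentage points for PIK3R1, 3.65 for PIK3R2, −2.91 for PIK3R3, −12.7 for PIK3C2A, 12.7 for PIK3C2B and −5.02 for the class IA catalytic genes.

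Rescaling to TPM, which shifted the median over the 13246 genes from −0.088 to 0.59, gave 4380 genes higher and 447 lower, 0 members lower, 55 pathway genes higher and 2 lower, and 0.12 for TXNDC9. The median over the members was 1.81 under TPM, against 0.59 over all tested genes. Centring gave 1452 genes higher and 2601 lower and turned PIK3C3 to −0.083. An average FPKM above 5 gave 1220 genes higher and 13 pathway genes higher, and no filter 16 pathway genes higher. The causes of these shifts were not tested. With the replicate number as a block alone, 1960 genes were called higher and 2146 lower, and the counts of members, 6 higher and 1 lower, were as without it. The correlation across genes between the deviations of same-numbered libraries was −0.0904, and the numbers were not taken to pair them. Pseudocounts of 1 and 0.01, an adjusted p under 0.05 and no trend kept every one of these counts within 1.5 times. Because the depth is unknown, the precision of low members such as PIK3R1 is known only from 2 libraries a group.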
